A study of Mus musculus with 6 samples.

Results

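Hox genes encode homeodomain transcription factors and were taken here as every gene whose symbol in the array annotation is Hoxa, Hoxb, Hoxc or Hoxd followed by a number, measured by a probe set with exactly 1 symbol. The rule found 36 of the 39 Hox genes that the mouse RefSeq table lists, among 22180 genes measured in all: 9 in the HoxA cluster, 10 in HoxB, 9 in HoxC and 8 in HoxD. The other 3 were not analysed here. RNA came from cells that the labels call tumor-associated endothelial cells, sorted magnetically from mouse gliomas with an antibody against CD105 (endoglin) and then held for 12 h in glioma-conditioned medium. The Tie2-Cre group held 3 mice (1, 3 and 4) carrying Tie2-Cre together with Pfn1 fl/fl and the Pfn1 change Y129F. The no Cre group held 3 mice (6, 7 and 10) with Pfn1 fl/fl and Y129F but no Cre. Pfn1 encodes profilin-1, which binds actin monomers. The Tie2 promoter is active in endothelial cells and in many blood cells, and the sources used here do not say how Cre acts on the Pfn1 alleles.

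In mammals, the Hox genes lie in 4 clusters, and genes of like position in different clusters form paralog groups that carry the same number. Genes with low numbers are switched on early and towards the head, and genes with high numbers later and towards the tail. Adult fibroblasts, smooth muscle and endothelial cells keep part of the Hox code of the body region they came from. Forebrain structures develop without Hox expression. The proteins bind DNA together with the cofactors of the PBX, MEIS and PREP families, the clusters are silenced by Polycomb proteins and kept active by Trithorax proteins, and retinoic acid switches on the low-numbered genes in the embryo.

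The clusters also carry microRNAs. Mature miR-196a and miR-615 are shown because a gene of each lies next to or inside a Hox gene that differed between the groups (Hoxb9 and Hoxc5). Those of miR-196b and of the miR-10 family are shown for comparison. Mouse miR-196a is known to cut Hoxb8 RNA and to pair with the RNA of Hoxa7, Hoxc8 and Hoxd8. The mature sequences below are from RefSeq (GRCm38.p6), written 5′ to 3′ with the seed, bases 2 to 8, in capitals. The pair miR-196a and miR-196b shares the seed AGGUAGU, and the pair miR-10a and miR-10b shares the seed ACCCUGU.
miR-196a-5p: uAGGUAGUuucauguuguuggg
miR-196b-5p: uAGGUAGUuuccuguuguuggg
miR-10a-5p: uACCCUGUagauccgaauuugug
miR-10b-5p: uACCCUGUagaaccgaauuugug
miR-615-3p: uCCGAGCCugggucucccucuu
In the order of the RefSeq table, the genes of miR-196a lie beside Hoxb9 and between Hoxc10 and Hoxc9, that of miR-196b beside Hoxa10, and that of miR-615 inside Hoxc5.

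With Tie2-Cre, 4 of the 36 Hox genes fell and 1 rose. Hoxc8, known for patterning the thorax and the nerves of the forelimb, had a log2 change of -1.67 (SE 0.12). Hoxb9, which patterns the ribs, had -1.13 (SE 0.12), and Hoxa7, which acts in the thoracic skeleton, had -0.52 (SE 0.068). Hoxa9, best known in blood stem cells and leukemia, had -0.41 (SE 0.094), and Hoxc5 was higher by 0.46 (SE 0.064). All changes are differences of log2 intensity, Tie2-Cre minus no Cre, and a gene counted as changed where the adjusted p of limma lay under 0.05 over all genes.

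The 5 changed genes made up 13.9% of the 36 Hox genes, beside 12.0% of all 22180 genes. By direction, 4 Hox genes were lower, beside 7.17% of all genes, and 1 was higher, beside 4.78% of all genes. The groups of 3 mice did not overlap in 11 Hox genes (30.6%), beside 31.0% of all genes. Tie2-Cre lay below in 9 and above in 2 of the 36 Hox genes, beside 3873 and 3012 of all 22180 genes. The Hox genes as a family thus changed about as often as other genes did. The median change was -0.05 over the Hox genes and -0.0042 over all genes.

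Levels are given as log2 of the deposited intensity. Probe sets differ in brightness, so the levels set no order between genes, and they carry no detection call. As a scale, the Y-linked genes Uty, Eif2s3y and Kdm5d read 4.52 to 5.62 in the no Cre mice, in which Xist was high. Xist read 5.36 to 6.06 in the Tie2-Cre mice, in which the Y-linked genes were high. HoxA genes had group means of 5.88 to 10.11 with Tie2-Cre and of 6.17 to 10.25 without Cre. HoxB genes spanned 6.07 to 9.40 with Tie2-Cre and 6.04 to 9.38 without Cre. HoxC genes spanned 5.65 to 8.71 with Tie2-Cre and 5.19 to 8.64 without Cre, and HoxD genes 5.65 to 7.30 with Tie2-Cre and 5.64 to 7.40 without Cre. Above the median of all genes lay 6 of 9 HoxA, 7 of 10 HoxB, 2 of 9 HoxC and 2 of 8 HoxD genes with Tie2-Cre, against 6, 8, 3 and 2 without Cre.

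**Figure D1:**
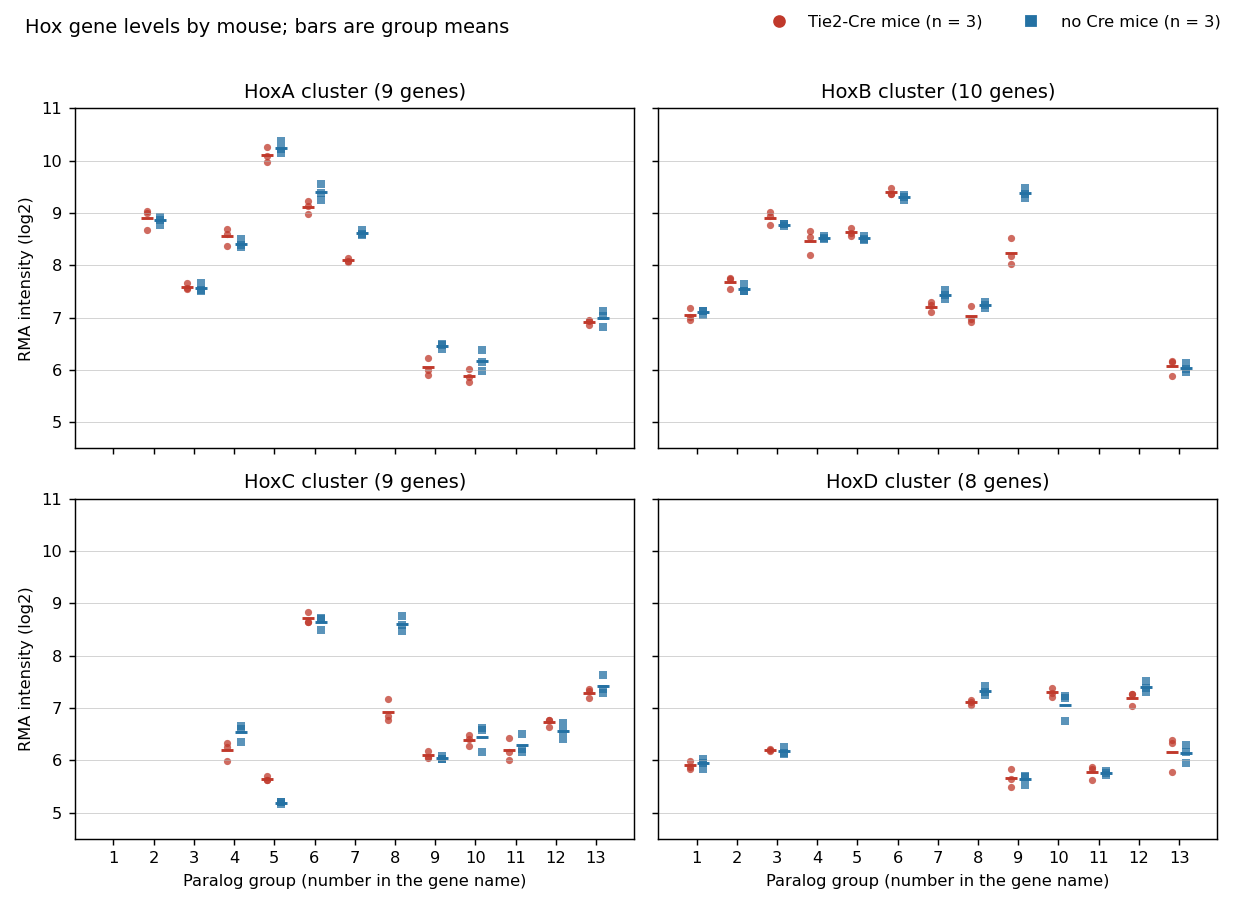
Log2 RMA intensity (y) of 36 Hox genes by cluster (panels) and paralog group (x), with 1 point per mouse, circles for Tie2-Cre and squares for no Cre, and bars for the means of 3 mice. The groups lie far apart at Hoxc8 (6.93 with Tie2-Cre, 8.60 without Cre) and Hoxb9 (8.24 and 9.38) and close together in most other genes.

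The anterior genes, paralog groups 1 to 3, showed no change past the threshold. These 7 genes had changes of -0.06 to 0.13, and their groups overlapped in each case. Hoxa2, which shapes the face and hindbrain, had 9.01, 9.04 and 8.67 in the Tie2-Cre mice, against 8.93, 8.87 and 8.77 in the no Cre mice. Its change of 0.04 had a 95% interval of -0.21 to 0.30. Hoxb3, a hindbrain and pharyngeal gene, averaged 8.91 ± 0.13 with Tie2-Cre and 8.78 ± 0.030 without Cre (SD, n = 3 mice each), a change of 0.13 (adjusted p 0.378 by limma). Hoxa3 (0.01), needed for the thymus, Hoxb2 (0.13), Hoxd3 (0.02), Hoxb1 (-0.06), which sets the fate of a hindbrain segment, and Hoxd1 (-0.04) had changes of no larger size. A further probe set carries the symbol of Hoxa3 beside that of another gene and was assigned to neither. It did not overlap, at 8.73, 8.84 and 8.86 with Tie2-Cre, against 8.51, 8.62 and 8.55 without Cre. In a fit over all 41345 probe sets its change was 0.25 (SE 0.074, adjusted p 0.128 by limma).

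The central genes, paralog groups 4 to 8, held the largest change of the family. Hoxc8 read 6.85, 6.77 and 7.18 in Tie2-Cre mice 1, 3 and 4, against 8.46, 8.76 and 8.58 in no Cre mice 6, 7 and 10. Every Tie2-Cre mouse lay more than 1 log2 unit below every no Cre mouse. On the linear scale the Tie2-Cre intensity was 0.314 of that without Cre, and the 95% interval of the log2 change was -1.96 to -1.39 (adjusted p 0.00018 by limma). The flanking genes Hoxc9 and Hoxc6 had changes of 0.05 and 0.07 and did not pass (adjusted p 0.693 and 0.706 by limma). Whether Hoxc8 differs from its neighbours was not tested.

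Hoxa7 read 8.08, 8.15 and 8.06 with Tie2-Cre, against 8.57, 8.68 and 8.59 without Cre. The groups were apart, with a spread (SD) of 0.047 and 0.055 in them, and the adjusted p was 0.0023 by limma. The flanking Hoxa6, a gene of the cervical and thoracic skeleton, had 9.13, 9.23 and 8.97 with Tie2-Cre, against 9.38, 9.55 and 9.26 without Cre. The Tie2-Cre mice lay below the others there too, but its change of -0.28 (SE 0.10) did not pass (adjusted p 0.121 by limma). A second probe set at this place in the cluster carries the symbols of both Hoxa7 and the noncoding RNA Mira and was assigned to neither. It read 7.86, 7.85 and 7.75 with Tie2-Cre, against 8.87, 8.91 and 8.90 without Cre. In a fit over all 41345 probe sets its change was -1.07 (SE 0.069, adjusted p 0.00094 by limma).

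The promoter of Hoxa7 is shown because it is the only one of the 4 most changed Hox genes (Hoxc8, Hoxb9, Hoxa7 and Hoxc5) with an entry in the promoter table used here. It runs from 250 bases before to 50 bases after the start of the gene, on the minus strand of chr6:52218524-52218823 (RefSeq, GRCm38.p6).
Hoxa7 promoter: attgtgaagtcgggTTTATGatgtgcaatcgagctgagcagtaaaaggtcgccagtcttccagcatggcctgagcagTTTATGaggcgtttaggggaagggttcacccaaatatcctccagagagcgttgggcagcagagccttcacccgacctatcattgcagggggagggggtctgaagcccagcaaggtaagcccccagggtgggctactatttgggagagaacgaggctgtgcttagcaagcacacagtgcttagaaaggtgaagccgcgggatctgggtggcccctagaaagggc
Capitals mark the letters TTTATG, the core of sites bound by CDX proteins, which occur 2 times on the shown strand and 0 times on the other. Of 32851 promoters of this length, 11.9% hold these letters on either strand. The HOX-PBX site TGATNNAT, the TATA box TATAAA and the GC box GGGCGG, searched on both strands, were not found in this window, and 8.85%, 13.6% and 35.7% of all promoters hold them. The motifs searched do not overlap in the window, which holds 9 CG pairs, beside a median of 7 over all promoters. These matches describe letters only.

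Hoxc5 was the 1 Hox gene that rose. It read 5.70, 5.62 and 5.62 with Tie2-Cre, against 5.20, 5.16 and 5.21 without Cre, so the groups did not overlap (adjusted p 0.00324 by limma). On the linear scale the Tie2-Cre intensity was 1.37 times that without Cre. The no Cre values lay within the 4.52 to 5.62 of the Y-linked genes in those mice, and the Tie2-Cre values within the 5.36 to 6.06 of Xist. With no detection call, it is not known whether so low a signal stands above the background of this probe set. Of the other central genes, Hoxc4 had a change of -0.34 (adjusted p 0.109), Hoxb7 of -0.23 (0.124), Hoxd8 of -0.21 (0.107) and Hoxb8, the known target of miR-196a, of -0.21 (0.212), all by limma. The mice did not overlap in Hoxc4, Hoxb7 and Hoxd8, with Tie2-Cre below. They did not overlap in Hoxb6 either, with Tie2-Cre above (9.37, 9.47 and 9.36, against 9.30, 9.35 and 9.26 without Cre). Hoxa5, which acts in lung development, averaged 10.11 ± 0.14 with Tie2-Cre and 10.25 ± 0.11 without Cre (SD, n = 3 mice each), with a 95% interval of the change from -0.36 to 0.08. Hoxa4 (0.14), Hoxb4 (-0.06), Hoxb5 (0.12), Hoxb6 (0.10) and Hoxc6 (0.07) did not pass. A second probe set of Hoxb5, the 1 gene with a further single-symbol probe set, gave 0.09.

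Among the posterior genes, paralog groups 9 to 13, Hoxb9 and Hoxa9 fell. Hoxb9 read 8.18, 8.03 and 8.52 with Tie2-Cre, against 9.48, 9.29 and 9.36 without Cre. All Tie2-Cre mice lay below all no Cre mice, and the linear intensity was 0.456 of that without Cre (95% interval of the log2 change -1.42 to -0.84, adjusted p 0.00108 by limma). The next Hox genes on either side, Hoxb8 and Hoxb13, a gene of the prostate and tail, had changes of -0.21 and 0.03 and did not pass.

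Hoxa9 read 6.00, 5.91 and 6.23 with Tie2-Cre, against 6.41, 6.48 and 6.49 without Cre (adjusted p 0.0267 by limma). Tie2-Cre mice 1 and 3 thus lay within the 5.36 to 6.06 that Xist read with Tie2-Cre. The groups did not overlap, but Hoxa9 no longer passed when any 1 mouse other than Tie2-Cre mouse 4 was left out. Its adjusted p was then 0.0833 and 0.0762 without Tie2-Cre mice 1 and 3, and 0.06, 0.0864 and 0.0883 without no Cre mice 6, 7 and 10 (limma). Its paralogs Hoxc9 (0.05) and Hoxd9 (0.02) did not pass. Hoxa10, a gene of the uterus and limb, had a change of -0.29 (adjusted p 0.164 by limma), and Hoxd12, a digit gene, of -0.21 with groups that did not overlap (adjusted p 0.201 by limma). Hoxd10, which patterns the limb, had 7.39, 7.29 and 7.21 with Tie2-Cre, against 7.20, 6.74 and 7.24 without Cre, where mouse 7 was low (change 0.24, adjusted p 0.319 by limma). Hoxd13, which shapes the digits, varied most among the Tie2-Cre mice, at 6.33, 6.38 and 5.77. Hoxa13 (-0.08), Hoxc10 (-0.05), Hoxc11 (-0.09), Hoxc12 (0.17), Hoxc13 (-0.14), a hair and nail gene, and Hoxd11 (0.03) did not pass.

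**Figure D2:**
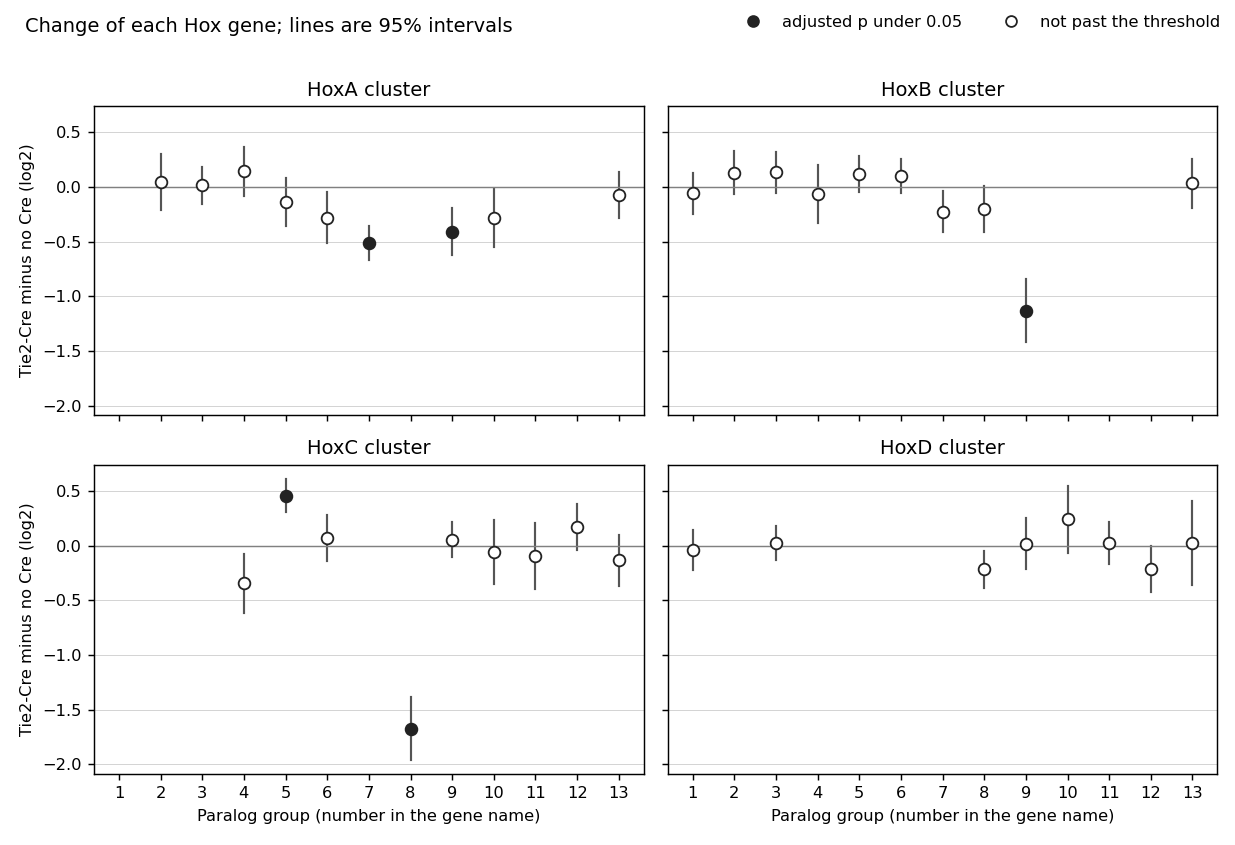
Log2 change of each Hox gene, Tie2-Cre minus no Cre (y), with its 95% interval, by cluster (panels) and paralog group (x); filled points passed the threshold. Filled points below 0 are Hoxa7, Hoxa9, Hoxb9 and Hoxc8, and the 1 above 0 is Hoxc5.

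By paralog group, the median change was -0.37 over the 2 genes of group 7, -0.21 over the 3 of group 8 and -0.20 over the 4 of group 9. It lay between -0.06 and 0.12 in every other group. Both genes of group 7 and all 3 of group 8 had negative changes, of which Hoxa7 and Hoxc8 passed the threshold. By cluster, the median was -0.14 in HoxA, -0.01 in HoxB, -0.05 in HoxC and 0.02 in HoxD, and 2, 1, 2 and 0 genes passed. These are descriptions of few genes, and no difference between clusters or positions was tested. The 31 genes that did not pass had changes of -0.34 to 0.24, and their 95% intervals together ran from -0.61 to 0.55.

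**Figure D3:**
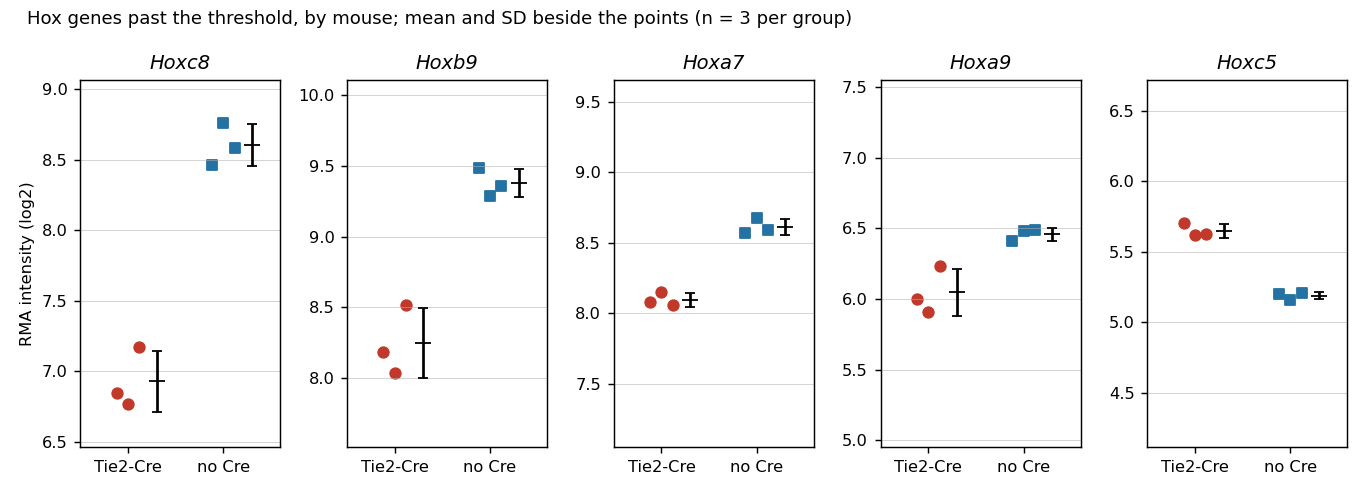
Log2 RMA intensity of the 5 Hox genes past the threshold, 1 point per mouse, with the mean and SD of 3 mice beside the points; every panel spans the same range of log2 units. Tie2-Cre mice lie below no Cre mice in Hoxc8, Hoxb9, Hoxa7 and Hoxa9 and above them in Hoxc5.

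Of 20 listed genes in the clusters that code for no protein, 7 had a probe set with a single symbol, and 0 of these 7 passed by limma, at an adjusted p of 0.151 or more (2 of 7, Mir196a-1 and Hoxaas3, at an unadjusted p under 0.05). Of all genes, 12.0% passed. Mira was not among the 7, and the probe set it shares with Hoxa7 was lower, as given above. The probe set of Mir196a-1 had a change of -0.31 (adjusted p 0.151 by limma), that of Mir196a-2 of -0.08, that of Mir10b of -0.02 and that of Mir615 of 0.20. Hotair, transcribed within HoxC, had -0.06, Hoxaas3 -0.19 and Hoxd3os1 -0.01. Whether probe sets of short hairpins read mature microRNA was not tested.

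Cofactors of Hox proteins were lower in 2 of 8 measured and higher in 0, with a median of -0.12. This is 25.0% of the list, beside 12.0% of all genes. Meis1, a TALE homeodomain partner of posterior Hox proteins, read 7.87, 8.03 and 8.23 with Tie2-Cre, against 8.42, 8.69 and 8.43 without Cre, a change of -0.47 (adjusted p 0.0343 by limma). Pbx3, a partner of the PBX family, changed by -0.31 (adjusted p 0.0377 by limma). The groups were apart in both genes. Meis1 no longer passed when any 1 mouse other than Tie2-Cre mouse 4 was left out (adjusted p 0.06 to 0.105 by limma), nor did Pbx3 when any 1 other than no Cre mouse 10 was (0.0639 to 0.126). Meis2 (-0.15), Pbx2 (0.27), Pknox2 (0.25) and Meis3 (0.11) did not pass.

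Of 30 measured regulators that silence or open the clusters, 2 rose and 3 fell, and the median change was 0.02. Their share of 16.7% lay near the 12.0% of all genes. Ezh2, the Polycomb enzyme that writes H3K27 methylation, fell by 0.52 (SE 0.0795, adjusted p 0.00499 by limma) and read 9.12, 9.21 and 9.34 with Tie2-Cre, against 9.75, 9.79 and 9.67 without Cre. The H3K27 demethylase Kdm6b rose by 0.55 (SE 0.068), while the related Kdm6a, an X-linked gene that escapes X inactivation, fell by 0.56 (SE 0.064). Over the alternatives, the change of Kdm6b ran from 0.32 to 0.59, and it was at least 0.53 when a mouse was left out. The Trithorax-type methyltransferase Kmt2d was higher by 0.32 (adjusted p 0.0319 by limma), but did not pass when any 1 mouse other than Tie2-Cre mouse 1 was left out (0.0657 to 0.108). Psip1, a chromatin reader that tethers such methyltransferases, was lower by 0.33 (adjusted p 0.0391 by limma), but did not pass when any 1 mouse other than Tie2-Cre mouse 3 was left out (0.0835 to 0.128). The Polycomb gene Phc1 had 0.25 (adjusted p 0.0525 by limma) and passed under 4 of the alternatives (0.0228 to 0.0427).

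In the retinoic acid pathway, 3 of 17 genes were higher and 3 lower, with a median of 0.14. These make up 35.3% of the list, beside 12.0% of all genes. The receptor Rarb, itself a known target of retinoic acid, read 7.04, 6.86 and 6.95 with Tie2-Cre, against 8.16, 7.97 and 8.06 without Cre. All Tie2-Cre mice lay below all no Cre mice, with a change of -1.12 (SE 0.081, adjusted p 0.000168 by limma). The binding protein Crabp2 fell by 0.91 (SE 0.10). The synthesizing enzyme Aldh1a2 was lower by 0.76 (SE 0.16, adjusted p 0.02 by limma), which no longer held when no Cre mouse 6, 7 or 10 was left out (0.0505, 0.0603 and 0.0745). Its relative Aldh1a3 was higher by 0.45, but not past the threshold when no Cre mouse 7 was left out (adjusted p 0.0558 by limma). The retinal reductase Dhrs3, which lowers retinoic acid output, rose by 0.83 (SE 0.12), and the receptor Rxra by 0.37 (adjusted p 0.0429 by limma), a call that ended when any 1 mouse was left out (0.0519 to 0.125).

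Genes next to the clusters and ParaHox genes gave 0 of 13 past the threshold by limma (1, Gsx1, at an unadjusted p under 0.05), with a median of 0.04, among them Gsx1 (0.24), Cdx2 (-0.14), Mnx1 (-0.25), Meox2 (0.14), Meox1 (0.07) and Gbx2 (0.09). Of 15 measured forebrain and head genes, Emx2 was lower, and 0 were higher. Past the threshold were thus 6.67% of this list and 0.0% of the neighbours and ParaHox genes, beside 12.0% of all genes. Emx2, a homeobox gene of the cortex and of the urogenital tract, read 6.76, 6.60 and 6.63 with Tie2-Cre, against 7.68, 7.60 and 7.78 without Cre (change -1.03, SE 0.079, adjusted p 0.000215 by limma). Of 23 trunk and limb mesenchyme genes, 3 were higher and 6 lower, a share of 39.1% beside 12.0% of all genes, with a median of -0.04. Foxf2 (-0.73, SE 0.0755), a forkhead gene of the gut wall and brain pericytes, Tbx18 (-0.73, SE 0.10), a T-box gene of mural cells and the epicardium, and Tbx3 (-0.53, SE 0.069), a T-box gene of the limb, were lower. Lower were also Hand2 (-0.49, SE 0.093), of heart and limb, and the zinc finger gene Gata6 (-0.43, SE 0.081), while Tcf21, of visceral mesenchyme, was higher (0.66, SE 0.13), though not when no Cre mouse 6 or 10 was left out (adjusted p 0.0535 and 0.0601 by limma).

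**Figure D4:**
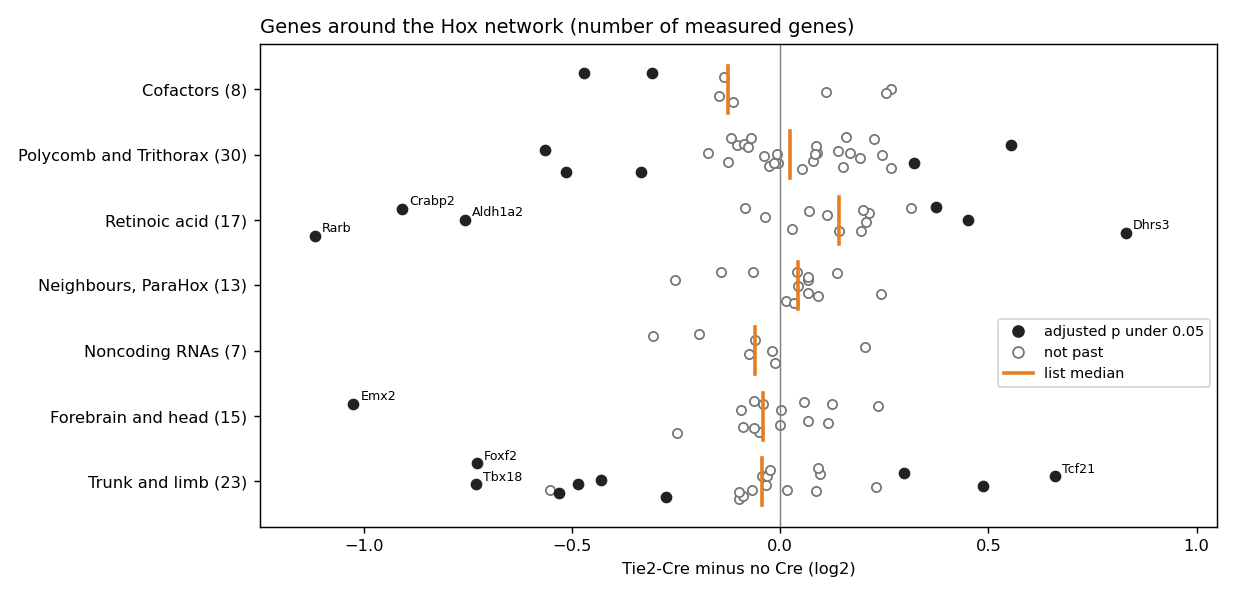
Log2 change, Tie2-Cre minus no Cre (x), of the measured genes in 7 lists around the Hox network (rows, with spread within a row for legibility only); filled points passed the threshold, and orange bars are list medians. Rarb (-1.12) and Emx2 (-1.03) lie farthest to the left and Dhrs3 (0.83) farthest to the right.

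Other features of the samples moved with the groups, and their part in the Hox results was not tested. Xist read 5.36 to 6.06 with Tie2-Cre and 11.16 to 11.44 without Cre, and the Y-linked genes read 8.78 to 9.41 with Tie2-Cre and 4.52 to 5.62 without Cre, so that sex markers and Cre cannot be told apart in any comparison here. Mesothelial markers were lower in 4 of 10, with summed linear intensities of 1396 to 1591 with Tie2-Cre and 4189 to 4531 without Cre. The 4 were Upk1b (-3.29, adjusted p 2.41e-05 by limma), Pkhd1l1 (-3.86), Upk3b (-1.36) and Krt19 (-0.42). Msln (-0.09), Lrrn4 (0.05), Krt8 (-0.14), Krt18 (-0.21), Wt1 (0.09) and Muc16 (-0.13) did not pass, so the sums do not stand for every marker of the list. Of the 4, Krt19 did not pass when any 1 mouse other than no Cre mouse 7 was left out (adjusted p 0.0544 to 0.103 by limma). Fibroblast markers were higher in 5 of 10 and lower in 1, with sums of 21549 to 24186 with Tie2-Cre and 19369 to 19662 without Cre. Dpt changed by 3.54. The lower one was Dcn (-0.76, adjusted p 0.00244 by limma), which averaged 12.45 with Tie2-Cre and 13.21 without Cre. Of the 10 changes, 7 were positive and 3 negative, and Col1a1 (-0.07) and Col3a1 (-0.20) did not pass. Pericyte and smooth muscle markers were higher in 5 of 10, with sums of 30222 to 36239 with Tie2-Cre and 21484 to 22924 without Cre. Of these 5, Pdgfrb did not pass when any 1 mouse other than Tie2-Cre mouse 4 was left out (adjusted p 0.0749 to 0.105 by limma), nor did Myh11 without Tie2-Cre mouse 1 or any no Cre mouse (0.0519 to 0.126). Microglia and macrophage markers, 1 higher and 2 lower of 11, summed to 1430 to 1557 with Tie2-Cre and 1428 to 1581 without Cre. Astrocyte, progenitor and glioma markers, 2 higher of 9 (S100b not without Tie2-Cre mouse 3, adjusted p 0.0514 by limma), summed to 1132 to 1147 with Tie2-Cre and 890.5 to 968.3 without Cre. The 2 were Nes (0.59) and S100b (0.57). The other 7 did not pass, and 3 of the 9 changes were negative. Neuron markers, 1 higher of 8 (Tubb3, change 1.06), summed to 1939 to 2400 with Tie2-Cre and 1311 to 1343 without Cre. Tubb3 averaged 10.04 with Tie2-Cre and 8.98 without Cre, and the other 7 did not pass. Past the threshold in either direction were thus 12.5% of the neuron list, near the 12.0% of all genes. In each of the other cell type lists of this paragraph the share was 22.2% or more. Whether any list differs from all genes was not tested. Map2, which did not pass, read 7.55, 7.58 and 9.52 in Tie2-Cre mice 1, 3 and 4. In these bulk samples, fewer cells of a type and less RNA per cell cannot be told apart.

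The label of the cells was set against 15 endothelial markers, of which 1 was higher and 1 lower. This is 13.3% of the list, beside 12.0% of all genes. Group means with Tie2-Cre and without Cre were 6.24 and 6.23 for Pecam1, 6.76 and 7.02 for Cdh5, 5.68 and 5.91 for Tek and 4.28 and 4.27 for Emcn. Eng, the gene of the sorting antigen, stood at 11.76 and 12.05. Its change of -0.30 (adjusted p 0.0217 by limma) did not pass when any 1 mouse other than Tie2-Cre mouse 3 was left out (0.0571 to 0.0827). Flt1 (1.11, adjusted p 0.0272 by limma) did not pass when no Cre mouse 6, 7 or 10 was left out (0.0732, 0.0655 and 0.0909). The changes of the others, none past the threshold, were 0.25 for Erg, 0.11 for Sox18, 0.07 for Kdr, 0.05 for Vwf, 0.02 for Tie1 and Robo4, -0.02 for Sox17, -0.05 for Esam and -0.16 for Cldn5. The summed linear intensity of the list was 4811 to 5107 with Tie2-Cre and 5413 to 5627 without Cre. Eng alone gave 3385 to 3546 of it with Tie2-Cre and 4177 to 4373 without Cre. The other 14 markers summed to 1331 to 1723 with Tie2-Cre and 1207 to 1254 without Cre, so that without Eng the sum was the higher one with Tie2-Cre. This sum includes Flt1, which read 8.24, 8.44 and 9.35 with Tie2-Cre, against 7.55, 7.69 and 7.47 without Cre. The sum without both Eng and Flt1 was not taken, so the higher sum is not a result about the markers jointly. Above the median of all genes lay 2 of these 15 markers in either group. Of 10 fibroblast markers, 9 lay above it with Tie2-Cre and 8 without Cre, and of 10 pericyte and smooth muscle markers 9 in either group. Of 10 mesothelial markers these were 4 and 6, of 8 neuron markers 4 and 3. In either group they were 4 of 11 microglia and macrophage and 3 of 9 astrocyte, progenitor and glioma markers. With no detection calls, these levels do not settle how far the cells carry the endothelial program.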

How the data were processed

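Total RNA of 6 mice was hybridized to Affymetrix mouse gene arrays, 1 array per mouse. The authors deposited intensity values on a linear scale (5.13 to 17822), which the submitters' processing notes credit to RMA and Affymetrix Expression Console. Version and build are not given in the sources used here. RMA normalizes by quantiles, and array values can understate changes of dim genes. Arrays have no read depth, and their number limits the precision.

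Log2 was taken of 41345 probe sets, of which 23521 carried 1 gene symbol, 1814 several (7 with a Hox symbol) and 16010 were not listed. The brightest probe set of each gene over the 6 arrays was kept, giving 22180 genes. The groups were compared with limma 3.58.1 in R 4.3.3 (lmFit, eBayes, two-sided), Benjamini-Hochberg adjusted over all genes. The code was tested on simulated data. All Hox genes were named, and up to 6 members of each other list with the smallest p, besides a few members chosen after their values were seen. The members and lists were chosen with earlier results of these data known. Figures were drawn with matplotlib 3.10.9.

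Alternatives tried were: further probe sets (those lacking a single symbol) in the fit, only genes with a mean log2 of at least 5, no genes from the dimmest 33.3%, a repeated quantile normalization, centred arrays, averaged probe sets, eBayes with trend and robust, array weights, a rule of unadjusted p under 0.05 with 1.5-fold or more, and omission of each mouse.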

Additional observations from a re-analysis of the deposited data

How the results depend on the processing

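The counts of lower Hox genes stayed at 3 or 4 and those of higher Hox genes at 1 when a mouse was left out. With an unadjusted p under 0.05 and at least 1.5-fold, 2 Hox genes were lower (Hoxc8 and Hoxb9) and 0 higher, since Hoxa7, Hoxa9 and Hoxc5 changed by less. Without the dimmest genes, 0 Hox genes were higher, since Hoxc5 was not among the genes tested. Hoxc8 and Hoxb9 kept their call and direction under every alternative. Over all genes, leaving out a mouse gave 634 to 903 higher and 910 to 1253 lower genes, the added probe sets 609 and 899, and the rule with 1.5-fold 424 and 551. With the added probe sets, the calls of Hoxa9, Meis1, Pbx3, Kmt2d, Psip1, Rxra, Aldh1a2, Tcf21, Eng, Flt1, Krt19, Myh11 and Pdgfrb ended, and that of Psip1 also with centred arrays. Myh11 also lost its call with eBayes trend and robust (adjusted p 0.0552 by limma). No paired analysis was possible because the groups share no mouse number. No Hox gene gained a call. Of the other genes followed, Phc1 gained one with a minimum mean log2 of 5 (0.0388), without the dimmest genes (0.0228), with a repeated quantile normalization (0.032) and with eBayes trend and robust (0.0427), and Cnn1, a smooth muscle gene, in 4 alternatives.

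Genes with changes near 0 turned sign when a mouse was left out. The ranges were, for Hox genes, Hoxa2 (-0.024 to 0.16), Hoxa3 (-0.019 to 0.062), Hoxb4 (-0.16 to 0.069), Hoxb13 (-0.021 to 0.13), Hoxc6 (-0.0019 to 0.11), Hoxc10 (-0.20 to 0.028), Hoxc11 (-0.21 to 0.012), Hoxd1 (-0.090 to 0.00095), Hoxd3 (-0.0015 to 0.063), Hoxd9 (-0.070 to 0.097), Hoxd11 (-0.019 to 0.10) and Hoxd13 (-0.088 to 0.22). For other genes they were Mir10b (-0.12 to 0.083), Mir196a-2 (-0.22 to 0.15), Hotair (-0.15 to 0.039), Gbx2 (-0.043 to 0.20), Emcn (-0.077 to 0.12), Pecam1 (-0.086 to 0.087), Esam (-0.096 to 0.025), Kdr (-0.0040 to 0.11), Tie1 (-0.063 to 0.078), Sox17 (-0.13 to 0.051) and Sox18 (-0.0088 to 0.18). A repeated quantile normalization turned Mir10b to 0.030 and Sox17 to 0.00021. The cause was not tested.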
